A study of Arabidopsis thaliana with 12 samples.

Results

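The core and linker histone genes of Arabidopsis thaliana roots were followed across 2 genotypes and 2 phosphate supplies. They were taken as every gene whose UniProt description in the deposited table names histone H1, H2A, H2B, H3 or H4, leaving out methyltransferases, acetyltransferases and demethylases. This gave 50 of the 25941 genes in the table. Of these, 48 fell into 11 histone classes: 3 linker H1 genes, 4 H2A, 2 H2A.X, 3 H2A.W, 4 H2A.Z, 10 H2B, 5 H3.1, 3 H3.3, 5 H3-like genes, 1 centromeric H3 (CENH3) and 8 H4. The other 2 were AT4G04835, annotated as a microRNA gene, and AT5G12920, which overlaps the H3-like gene HTR15 on the opposite strand; neither is counted in a class. HTB10, an H2B gene that lies opposite HTA12, was not analysed here.

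Roots were grown for 10 days on solid MS medium and profiled by RNA sequencing in 12 libraries, 3 in each of 4 groups. OX3 at low phosphate (6.25 µM) and OX3 at normal phosphate (1250 µM) were seedlings of a transgenic line that overexpresses GmVP2, a soybean gene for a vacuolar proton pyrophosphatase. Wild type (WT) at low phosphate and WT at normal phosphate were Columbia-0 seedlings given the same supplies. OX3 is 1 line, the promoter that drives its transgene was not given in the sources used here, and the transgene itself was not measured here. The labels do not say whether replicates came from separate plants or plates, so p-values measure the spread between these libraries, which may be technical.

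Histones package DNA into nucleosomes. A core of H2A, H2B, H3 and H4 wraps the DNA, and linker H1 binds where the DNA enters and leaves it. In plants, as in animals, the replicative forms such as H3.1 and most H2A, H2B and H4 are made in bulk in S phase of dividing cells, whereas variants such as H3.3 and H2A.Z are also made outside it. H2A.X marks DNA breaks, H2A.W lies in plant heterochromatin, and CENH3 sets the centromere. H1.3 is the short linker histone of Arabidopsis and is known to be induced by drought and low light, unlike the constitutive H1.1 and H1.2.

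The recovered depth was 17670349 to 20418542 reads per library. Values are RPKM, read counts scaled to gene length and library size, as the authors deposited them. The phosphate starvation genes SPX1 and IPS1 were far higher in every library labelled low phosphate. SPX1 had 943 to 1175 RPKM in the 6 low-phosphate libraries, against 7.86 to 11.9 RPKM in the 6 normal-phosphate libraries. Root marker PYK10, a beta-glucosidase of root endoplasmic reticulum bodies, was at 4363 RPKM or above everywhere, and the leaf carbonic anhydrase gene CA1 stayed at 0.375 RPKM or below. Transcripts of the photosynthesis genes RBCS1A and LHCB1.3 were still present, at 54.2 to 345 RPKM. In whole roots, fewer cells of a type and less RNA per cell cannot be told apart.

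The upstream windows of 5 genes are shown first: those of the linker gene and the H2B gene that changed most with phosphate among the genes tested, and of 3 genes that share a histone promoter motif, of which H1.1 and HTR1 rose and AT1G07660 did not pass. Each is the 250 bases before the annotated start, 5′ to 3′ on the gene's strand, read from RefSeq's TAIR10.1. Capitals mark the octamer CGCGGATC, on either strand, or the hexamer ACGTCA, both known from plant histone promoters. H1.3 (chr2:7845673-7845922, plus strand) had the strongest phosphate response of the histone genes tested and neither motif. H1.1 (chr1:2077768-2078017, minus strand), HTR1 (chr5:26120582-26120831, minus strand) and the H4 gene AT1G07660 (chr1:2368583-2368832, plus strand) carry the octamer. HTB6 (chr3:19889047-19889296, plus strand), the tested H2B gene with the strongest response, carries the hexamer.
H1.3: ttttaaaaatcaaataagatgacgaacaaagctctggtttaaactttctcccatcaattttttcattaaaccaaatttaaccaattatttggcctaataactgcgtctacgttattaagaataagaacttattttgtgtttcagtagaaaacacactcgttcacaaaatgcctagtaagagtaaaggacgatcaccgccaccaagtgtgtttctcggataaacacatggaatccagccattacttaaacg
H1.1: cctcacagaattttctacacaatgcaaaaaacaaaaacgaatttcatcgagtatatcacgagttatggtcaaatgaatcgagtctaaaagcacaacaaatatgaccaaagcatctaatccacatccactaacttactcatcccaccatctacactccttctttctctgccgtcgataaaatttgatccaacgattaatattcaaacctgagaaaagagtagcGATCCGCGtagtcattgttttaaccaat
HTR1: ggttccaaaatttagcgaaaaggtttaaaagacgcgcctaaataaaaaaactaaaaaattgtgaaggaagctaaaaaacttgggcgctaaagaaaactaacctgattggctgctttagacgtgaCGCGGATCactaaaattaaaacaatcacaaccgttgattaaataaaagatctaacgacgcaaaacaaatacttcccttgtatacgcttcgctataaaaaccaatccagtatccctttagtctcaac
AT1G07660: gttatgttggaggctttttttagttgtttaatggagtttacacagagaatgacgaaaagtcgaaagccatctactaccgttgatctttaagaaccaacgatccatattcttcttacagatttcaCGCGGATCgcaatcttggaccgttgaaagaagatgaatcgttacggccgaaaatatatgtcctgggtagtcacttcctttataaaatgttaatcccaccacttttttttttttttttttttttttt
HTB6: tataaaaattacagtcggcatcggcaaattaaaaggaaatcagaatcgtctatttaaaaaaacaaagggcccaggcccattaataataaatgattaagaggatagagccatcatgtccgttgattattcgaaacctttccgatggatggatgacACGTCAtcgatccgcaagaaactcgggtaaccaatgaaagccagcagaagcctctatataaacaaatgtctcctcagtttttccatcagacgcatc

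The octamer was present in 10 of the 44 tested histone genes with a class, or 22.7%, and in 35 of 25687 windows of all genes, or 0.136%. It stood upstream of H1.1, HTA10, HTA13, HTA6, the H3.1 genes HTR1, HTR2 and HTR9, the H3.3 gene HTR5, and the H4 genes AT1G07660 and AT5G59690. In H1.1 its first base lay 28 bases before the start, and in both HTR1 and AT1G07660 it lay 126 bases before. The hexamer was present in 10 of 44, against 7.77% of all windows, and 7 of those 10 were H2B genes, of which 9 were tested. The site TGGGCC, which TCP factors bind, was in 14 of 44, against 14.2% of all windows. Of the E2F sites TTTCCCGC, TTTGGCGC, TTTCGCGC and TTTGCCGC, at least 1 was in 3 of 44, against 1.38% of all windows. GNATATNC, the site bound by the phosphate starvation regulator PHR1, was in 0 of 44, against 5.54% of all windows. Both strands were searched, no match overlapped a match of another motif in these genes, and the matches are descriptions of the windows only.

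The first question was how the histone genes differed between low and normal phosphate within each genotype. Most of them rose and none fell. The 45 members above the minimum of 1 RPKM on average were 44 histone genes with a class and AT5G12920, which is in none. Of these 45, 31 were higher and 0 lower in OX3 at low phosphate than in OX3 at normal phosphate (limma on log2(RPKM + 1), Benjamini-Hochberg adjusted p below 0.05). Over all 18910 genes tested in OX3, 23.3% were called higher and 23.8% lower. In WT, 35 of the 45 were higher and 0 lower, where 24.3% of all genes tested were called higher and 21.6% lower. At an unadjusted p below 0.05, 0 were lower in OX3 and 0 in WT, and limma voom on the recovered reads also called 0 lower. The median change of the 45 was 0.35 on the log2 scale in OX3 and 0.48 in WT, beside -0.02 and 0.02 over all genes tested. All 31 genes called in OX3 were among the 35 called in WT, which is 88.6% of the WT calls; over all genes tested, 81.8% of the OX3 calls and 78.2% of the WT calls were shared.

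**Figure D1:**
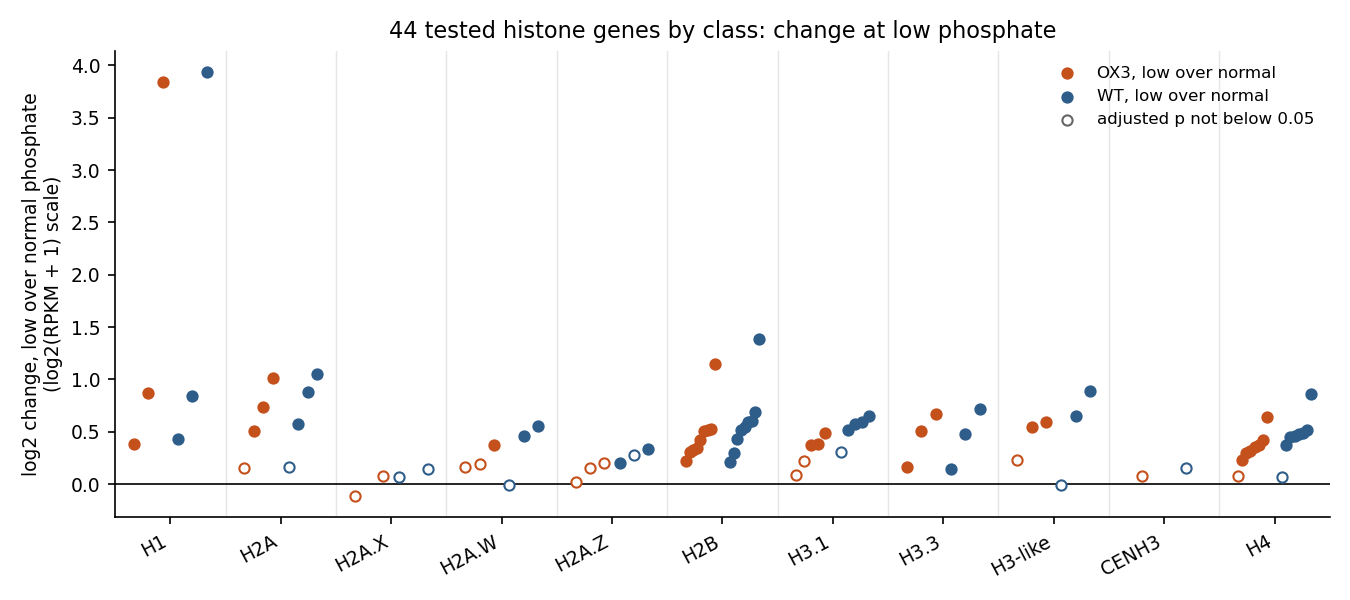
Log2 change of 44 histone genes at low over normal phosphate, by class, in OX3 (orange, left in each class) and WT (blue, right). Each point is a gene, filled where limma's adjusted p was below 0.05; H1.3 stands at 3.85 in OX3 and 3.94 in WT, and no filled point lies below 0.

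By class median, linker histones changed most. H1.3 (AT2G18050, chromosome 2, 7845923 to 7847031, plus strand in TAIR10.1) had 209.9, 203 and 216 RPKM in OX3 at low phosphate, against 17.0, 10.3 and 14.6 RPKM in OX3 at normal phosphate. In WT it had 252, 193 and 207 RPKM at low phosphate, against 10.4, 15.3 and 14.3 RPKM at normal phosphate. The low-phosphate libraries were far above the normal-phosphate ones in both genotypes, with the lowest of them at more than 10 times the highest normal one. The log2 change was 3.85 (SE 0.16, limma adjusted p = 9.60e-11) in OX3 and 3.94 (SE 0.16, limma adjusted p = 7.56e-11) in WT. That placed H1.3 at rank 43 in OX3 and rank 34 in WT among the 18910 genes tested, ordered by log2 change.

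The constitutive linker genes rose less. H1.1 (AT1G06760) had 161, 154 and 153 RPKM in OX3 at low phosphate, against 79.6, 87.1 and 88.2 RPKM in OX3 at normal phosphate. In WT, H1.1 had 159.7, 167 and 155 RPKM at low phosphate, against 91.6, 89.8 and 86.1 RPKM at normal phosphate. Neither pair of groups overlapped, and the log2 changes were 0.87 (limma adjusted p = 8.07e-09) in OX3 and 0.84 (limma adjusted p = 1.14e-08) in WT. H1.2 (AT2G30620) had 166, 164 and 172 RPKM in OX3 at low phosphate, against 123, 132 and 129 RPKM in OX3 at normal phosphate. In WT, H1.2 had 160.0, 165 and 173 RPKM at low phosphate, against 129, 122 and 117 RPKM at normal phosphate. Its groups did not overlap either, with log2 changes of 0.38 (limma adjusted p = 3.48e-05) in OX3 and 0.43 (limma adjusted p = 1.07e-05) in WT. H1.1 and H1.2 overlap genes on the opposite strand, and the strand setting of the counting was not given in the sources used here, so part of their reads may come from those genes. H1.3 overlaps no other gene. The proteins differ as well: H1.1 has 274 residues, H1.2 has 273 and H1.3 has 167. Aligned end to end, H1.3 has 77 residues identical to H1.1 and 75 identical to H1.2. These are 28.1% and 27.5% of the length of the longer protein, so the percentages also carry the difference in length.

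**Figure D2:**
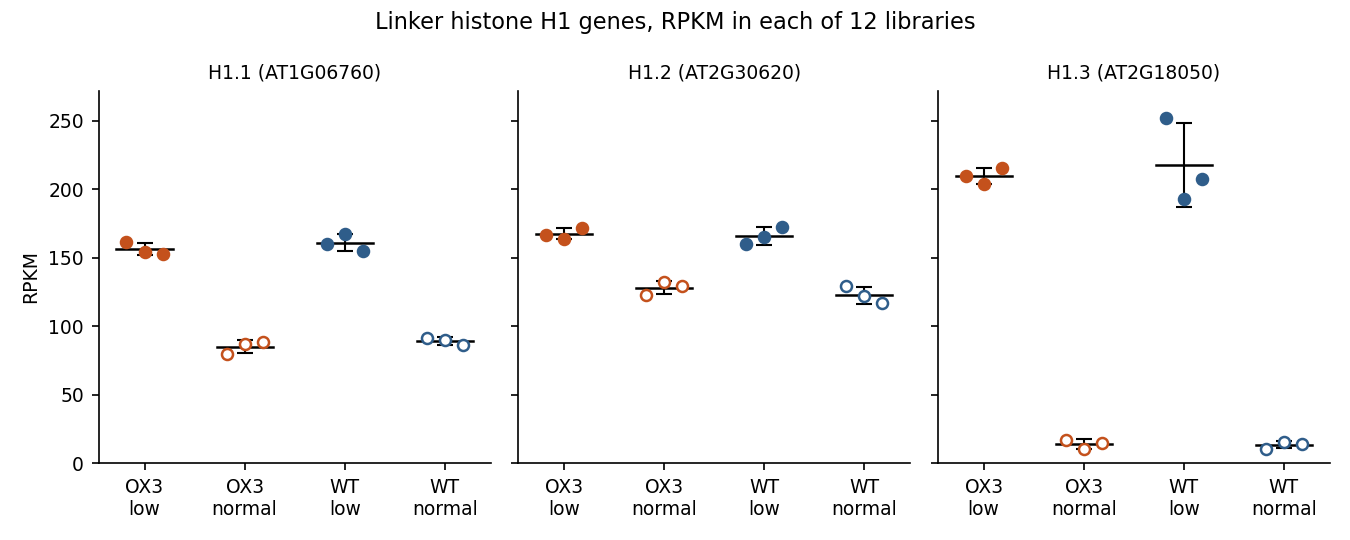
RPKM of the 3 linker histone genes in each library (points; filled, low phosphate; open, normal phosphate), with group mean and SD (n = 3). H1.3 lies at 193 to 252 RPKM in the 6 low-phosphate libraries and at 10.3 to 17.0 RPKM in the 6 normal-phosphate libraries.

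The make-up of the linker histone transcripts changed with it. H1.3 made up 39.3 ± 0.506% of the summed H1 RPKM in OX3 at low phosphate, against 6.16 ± 1.63% in OX3 at normal phosphate (SD, n = 3 each). In WT the share was 39.8 ± 3.77% at low phosphate, against 5.94 ± 1.25% at normal phosphate (SD, n = 3 each). In RPKM, a scale per length, H1.3 was the lowest of the linker genes in all 6 normal-phosphate libraries and the highest in all 6 low-phosphate libraries. Set against the summed RPKM of all core histone genes, the H1 sum was 10.6 ± 0.679% in OX3 at low phosphate, against 5.85 ± 0.133% in OX3 at normal phosphate (SD, n = 3 each). In WT it was 11.3 ± 1.01% at low phosphate, against 6.46 ± 0.0117% at normal phosphate (SD, n = 3 each). Neither pair of groups overlapped in this ratio. At low over normal phosphate the H1 sum was 2.35-fold in OX3 and 2.42-fold in WT. The core sum was 5029 ± 369 RPKM in OX3 at low phosphate, against 3876 ± 116 RPKM at normal phosphate in OX3 (SD, n = 3 each). In WT it was 4836 ± 219 RPKM at low phosphate, against 3488 ± 116 RPKM at normal phosphate (SD, n = 3 each), so core transcripts were higher too, by a smaller factor.

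Among the canonical H2A genes, 3 of 4 rose in each genotype. HTA1 (AT5G54640, also RAT5, known for its part in Agrobacterium T-DNA integration in roots) had 89.9, 85.6 and 91.1 RPKM in OX3 at low phosphate, against 38.9, 47.6 and 44.8 RPKM in OX3 at normal phosphate. In WT, HTA1 had 90.3, 87.3 and 83.9 RPKM at low phosphate, against 39.7, 42.5 and 42.3 RPKM at normal phosphate. All low-phosphate libraries were far above the normal ones, and the log2 changes were 1.01 (limma adjusted p = 1.67e-08) in OX3 and 1.05 (limma adjusted p = 1.07e-08) in WT. HTA13 (AT3G20670) had 99.2, 107 and 118 RPKM in OX3 at low phosphate, against 63.7, 65.2 and 64.6 RPKM in OX3 at normal phosphate. In WT, HTA13 had 101, 118 and 109 RPKM at low phosphate, against 60.4, 63.7 and 53.2 RPKM at normal phosphate. It rose by 0.73 in OX3 and 0.88 in WT on the log2 scale (limma adjusted p = 2.23e-06 and 3.32e-07), and HTA2 by 0.51 and 0.57. The most abundant H2A gene did not pass. HTA10 (AT1G51060) had 273, 268 and 303 RPKM in OX3 at low phosphate, against 243, 266 and 247 RPKM in OX3 at normal phosphate. In WT, HTA10 had 259, 271 and 255 RPKM at low phosphate, against 244, 237 and 222 RPKM at normal phosphate. The low-phosphate libraries lay just above the normal ones in each genotype, with log2 differences of 0.15 (95% interval 0.02 to 0.29, limma adjusted p = 0.0573) in OX3 and 0.16 (95% interval 0.02 to 0.29, limma adjusted p = 0.0517) in WT. Some alternatives put HTA10 past the threshold, 5 of 19 in OX3 and 4 of 19 in WT. A correction for GC content and gene length gave adjusted p = 0.00237 in OX3 and 0.0237 in WT (limma), and median-ratio size factors gave 0.0403 in OX3. On the recovered reads limma voom gave adjusted p = 0.0492 in OX3 and 0.0437 in WT. Without OX3 normal-phosphate library 3 the limma adjusted p in OX3 was 0.0411, and without OX3 low-phosphate library 2 it was 0.0487. In WT it was 0.0465 without WT normal-phosphate library 2 and 0.0317 without OX3 low-phosphate library 4.

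The H2A.X and H2A.Z variants moved less, by class median. Of the 2 H2A.X genes, 0 passed in OX3 and 0 in WT by limma, with 0 and 1 at an unadjusted p below 0.05, and limma voom called 0 and 0. HTA5, the more abundant, had log2 differences of 0.08 in OX3 and 0.14 in WT (limma adjusted p = 0.298 and 0.0642), the second of which passed without WT normal-phosphate library 2 (limma adjusted p = 0.0228). HTA5 had 112, 104 and 116 RPKM in OX3 at low phosphate, against 102, 104 and 108 RPKM in OX3 at normal phosphate, and these groups overlapped. In WT, HTA5 had 103, 105 and 108 RPKM at low phosphate, against 102, 96.3 and 87.8 RPKM at normal phosphate, with no overlap. HTA3, the other H2A.X gene, overlaps another gene and had differences of -0.12 in OX3 and 0.07 in WT. Of the H2A.Z genes tested, 0 of 3 passed in OX3 and 2 of 3, HTA9 and HTA11, rose in WT; in OX3, 1 of the 3 had an unadjusted p below 0.05 by limma, and limma voom called 0. HTA9 (AT1G52740), the most abundant H2A.Z gene, had 185, 192 and 211 RPKM in OX3 at low phosphate, against 195, 201 and 182 RPKM in OX3 at normal phosphate. In WT, HTA9 had 174, 199 and 184 RPKM at low phosphate, against 164, 157 and 161 RPKM at normal phosphate. Its OX3 groups overlapped widely, with a log2 difference of 0.02 (95% interval -0.12 to 0.16), and its WT groups did not, with 0.21 (95% interval 0.07 to 0.34, limma adjusted p = 0.018). Without WT low-phosphate library 3 or WT normal-phosphate library 3 the WT call was lost (limma adjusted p = 0.083 and 0.0598). HTA11 rose by 0.34 in WT (limma adjusted p = 0.00546), where it had 39.8, 49.5 and 49.2 RPKM at low phosphate, against 35.5, 36.9 and 36.1 RPKM at normal phosphate; in OX3 the difference was 0.20 (limma adjusted p = 0.0696). HTA11 passed in OX3 in 7 of 19 alternatives, among them without OX3 low-phosphate library 1, OX3 normal-phosphate library 3 or WT low-phosphate library 2 (limma adjusted p = 0.0357, 0.0379 and 0.0251). HTA8, the third tested H2A.Z gene, had differences of 0.16 in OX3 and 0.28 in WT and passed in neither. Over the 19 alternatives its difference ran from 0.02 to 0.31 in OX3 and from 0.17 to 0.42 in WT. It passed in 1 of the 19 in OX3 and in 2 in WT, among these without WT low-phosphate library 2 (limma adjusted p = 0.0128 in WT).

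The H2A.W genes HTA6 and HTA7 rose in WT by 0.45 and 0.56 (limma adjusted p = 0.000492 and 1.38e-05), and in OX3 HTA7 alone of the 3 passed, with 0.37 (limma adjusted p = 0.000537). HTA6 (AT5G59870), the most abundant of them, had 153, 155 and 178 RPKM in OX3 at low phosphate, against 134, 152 and 138 RPKM in OX3 at normal phosphate. In WT, HTA6 had 143, 174 and 167 RPKM at low phosphate, against 125, 119 and 107 RPKM at normal phosphate. Low-phosphate libraries were higher in both genotypes, although the OX3 difference of 0.19 did not pass (limma adjusted p = 0.0762) and passed in 5 of 19 alternatives, among them without WT low-phosphate library 2 (limma adjusted p = 0.0398). HTA12, the third H2A.W gene, overlaps the H2B gene HTB10, and the deposited table describes the HTA12 row as histone H2B.9, so which of the 2 genes its reads come from cannot be told apart. It had differences of 0.16 in OX3 and -0.01 in WT, neither of which passed; without WT low-phosphate library 2 the OX3 difference did (limma adjusted p = 0.0443). As a share of all H2A RPKM, the H2A.Z genes had 21.6 ± 0.513% in OX3 at low phosphate, against 24.9 ± 0.619% in OX3 at normal phosphate (SD, n = 3 each). In WT they had 21.5 ± 0.730% at low phosphate, against 23.8 ± 0.921% at normal phosphate (SD, n = 3 each). The share of H2A.Z was lower in all low-phosphate libraries than in all normal-phosphate libraries of the same genotype.

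All 9 tested H2B genes rose in both genotypes, with log2 changes of 0.22 to 1.15 in OX3 and 0.21 to 1.39 in WT. HTB6 (AT3G53650, chromosome 3, 19889297 to 19890251, plus strand in TAIR10.1) changed most among the tested core histone genes on the log2(RPKM + 1) scale. Over the alternatives, the WT change of the H3-like gene HTR14, which is near the minimum, reached 1.66, against 1.49 for HTB6. HTB8, an H2B gene below the minimum level, is described with the genes that were not tested. HTB6 had 23.1, 24.3 and 24.3 RPKM in OX3 at low phosphate, against 8.97, 11.4 and 10.4 RPKM in OX3 at normal phosphate. In WT, HTB6 had 21.1, 26.3 and 26.4 RPKM at low phosphate, against 9.59, 9.04 and 7.64 RPKM at normal phosphate. Low-phosphate libraries were at least 2 times as high as normal ones in each genotype, and the log2 changes were 1.15 (SE 0.10, limma adjusted p = 3.07e-07) in OX3 and 1.39 (SE 0.10, limma adjusted p = 4.17e-08) in WT. HTB11 (AT3G46030), the most abundant H2B gene, had 293, 294 and 344 RPKM in OX3 at low phosphate, against 238, 249.9 and 241 RPKM in OX3 at normal phosphate. In WT, HTB11 had 277, 298 and 289 RPKM at low phosphate, against 229.6, 214 and 199 RPKM at normal phosphate. Its log2 changes of 0.35 in OX3 and 0.43 in WT (limma adjusted p = 0.001 and 0.000163) were well below those of HTB6, whose protein is 83.4% identical. HTB1, HTB5, HTB7 and HTB9 rose by 0.53, 0.42, 0.51 and 0.51 in OX3 and by 0.69, 0.59, 0.60 and 0.55 in WT.

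HTB4 had the smallest H2B change in OX3 and HTB3 the smallest in WT. HTB4 (AT5G59910) had 238, 239 and 271 RPKM in OX3 at low phosphate, against 203, 221 and 216 RPKM in OX3 at normal phosphate. In WT, HTB4 had 231, 249 and 233 RPKM at low phosphate, against 201, 192 and 187 RPKM at normal phosphate. Its groups stood apart in both genotypes at log2 changes of 0.22 in OX3 (limma adjusted p = 0.00969) and 0.30 in WT (limma adjusted p = 0.00129). HTB2 (AT5G22880) had 155, 158 and 193 RPKM in OX3 at low phosphate, against 137, 132 and 137 RPKM in OX3 at normal phosphate. In WT, HTB2 had 153, 186 and 173 RPKM at low phosphate, against 121, 121 and 114 RPKM at normal phosphate. It rose by 0.31 in OX3 and 0.52 in WT (limma adjusted p = 0.00667 and 0.000118). HTB3 rose by 0.33 in OX3 (limma adjusted p = 0.00101) and by 0.21 in WT, where it had 60.8, 50.3 and 56.5 RPKM at low phosphate, against 46.0, 48.2 and 50.3 RPKM at normal phosphate, and the groups overlapped (limma adjusted p = 0.0206). The WT call was lost in 6 of 19 alternatives: without WT low-phosphate libraries 2 or 4 or WT normal-phosphate library 2 (limma adjusted p = 0.0879, 0.0579 and 0.0806), with size factors, with the compared groups alone and with a GC content and length correction (0.0517, 0.0556 and 0.155).

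Replicative H3.1 and replacement H3.3 differ at 4 of 136 residues, and both rose. The 5 H3.1 genes encode 1 protein and the 3 H3.3 genes 1 protein. In OX3, 3 of 5 H3.1 genes and 3 of 3 H3.3 genes rose, and in WT 4 of 5 and 3 of 3. HTR1 (AT5G65360), the most abundant H3.1 gene, had 201, 218 and 238 RPKM in OX3 at low phosphate, against 165, 164 and 172 RPKM in OX3 at normal phosphate. In WT, HTR1 had 199, 219 and 222 RPKM at low phosphate, against 153, 141 and 129.5 RPKM at normal phosphate. The groups did not overlap, and the log2 changes were 0.39 (limma adjusted p = 0.000567) in OX3 and 0.60 (limma adjusted p = 1.03e-05) in WT. HTR2 and HTR9 rose by 0.49 and 0.37 in OX3 and by 0.65 and 0.52 in WT. HTR13, the H3.1 gene that did not pass in either genotype, had differences of 0.09 (95% interval -0.21 to 0.38) in OX3 and 0.31 (95% interval 0.02 to 0.60) in WT; in WT it passed in 3 of 19 alternatives, among them without WT low-phosphate library 2 and without OX3 low-phosphate library 1 (limma adjusted p = 0.0101 and 0.0424). HTR3, which overlaps another gene, rose in WT by 0.58 (limma adjusted p = 0.0142) and had a difference of 0.22 in OX3 (95% interval -0.15 to 0.59); its WT call was lost without WT low-phosphate library 3 or WT normal-phosphate library 3 (limma adjusted p = 0.0702 and 0.0733).

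The H3.3 genes responded unequally. HTR8 (AT5G10980) had 522, 524 and 557 RPKM in OX3 at low phosphate, against 325, 343 and 335 RPKM in OX3 at normal phosphate. In WT, HTR8 had 539, 547 and 532 RPKM at low phosphate, against 321, 325 and 333 RPKM at normal phosphate. Its log2 changes were 0.67 in OX3 (95% interval 0.56 to 0.79, limma adjusted p = 9.24e-08) and 0.72 in WT (95% interval 0.61 to 0.83, limma adjusted p = 4.50e-08). HTR5 (AT4G40040) had 532, 511 and 564 RPKM in OX3 at low phosphate, against 372, 389 and 369 RPKM in OX3 at normal phosphate. In WT, HTR5 had 513, 506 and 483 RPKM at low phosphate, against 350.4, 372 and 355 RPKM at normal phosphate. It rose by 0.51 in OX3 and 0.48 in WT (limma adjusted p = 4.93e-06 and 8.48e-06). HTR4 (AT4G40030), the neighbour of HTR5 on chromosome 4, had 259.9, 264 and 289 RPKM in OX3 at low phosphate, against 237, 247 and 241 RPKM in OX3 at normal phosphate. In WT, HTR4 had 249, 239 and 228 RPKM at low phosphate, against 213, 215 and 220.0 RPKM at normal phosphate. Its log2 changes were 0.16 in OX3 (95% interval 0.05 to 0.28, limma adjusted p = 0.0246) and 0.14 in WT (95% interval 0.02 to 0.26, limma adjusted p = 0.0476), intervals that do not reach those of HTR8. The HTR4 call in WT was lost in 13 of 19 alternatives, with limma adjusted p from 0.0281 to 0.126, the highest without WT low-phosphate library 2. In OX3 it was lost without OX3 low-phosphate library 4, OX3 normal-phosphate library 2 or OX3 normal-phosphate library 4 (limma adjusted p = 0.0969, 0.0795 and 0.0668). H3.3 genes held 70.8 ± 1.35% of H3.1 and H3.3 RPKM in OX3 at low phosphate, against 69.3 ± 0.497% in OX3 at normal phosphate (SD, n = 3 each). In WT the share was 70.5 ± 2.31% at low phosphate, against 71.7 ± 1.67% at normal phosphate (SD, n = 3 each), and the groups overlapped in WT. In OX3 the ranges were 69.6 to 72.3% at low phosphate and 68.8 to 69.8% at normal phosphate, so the groups overlapped there too.

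The H3-like genes were near the minimum. HTR11 (AT5G65350), which lies beside HTR1 on chromosome 5, had 3.87, 3.37 and 4.47 RPKM in OX3 at low phosphate, against 2.60, 2.30 and 1.88 RPKM in OX3 at normal phosphate. In WT, HTR11 had 4.01, 4.64 and 4.52 RPKM at low phosphate, against 1.91, 2.60 and 2.85 RPKM at normal phosphate. It rose by 0.59 in OX3 and 0.65 in WT (limma adjusted p = 0.00146 and 0.000678). HTR14 (AT1G75600) had 1.13, 1.67 and 2.63 RPKM in OX3 at low phosphate, against 0.598, 1.09 and 0.966 RPKM in OX3 at normal phosphate. In WT, HTR14 had 2.23, 2.85 and 1.43 RPKM at low phosphate, against 0.865, 0.332 and 0.908 RPKM at normal phosphate. Both pairs of groups were apart, at 0.55 in OX3 (limma adjusted p = 0.0487) and 0.89 in WT (limma adjusted p = 0.00345), a scale on which the pseudocount of 1 understates changes of such low values. The OX3 call of HTR14 was lost in 11 of 19 alternatives, with limma adjusted p from 0.0181 to 0.216, the highest without OX3 low-phosphate library 4. HTR6, the other tested H3-like gene, had differences of 0.23 in OX3 and -0.0046 in WT, neither of which passed. The centromeric HTR12 (AT1G01370) had 5.17, 6.05 and 5.88 RPKM in OX3 at low phosphate, against 5.27, 5.28 and 5.44 RPKM in OX3 at normal phosphate. In WT, HTR12 had 4.30, 5.81 and 5.94 RPKM at low phosphate, against 5.09, 4.18 and 4.74 RPKM at normal phosphate. Its groups overlapped in both genotypes, with differences of 0.08 in OX3 (95% interval -0.15 to 0.31) and 0.16 in WT (95% interval -0.07 to 0.38), neither of which passed; without WT low-phosphate library 2 it passed in WT at 0.28 (limma adjusted p = 0.0265).

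The 8 H4 genes encode 1 protein of 103 residues, yet their changes ranged widely. In each genotype 7 of 8 rose. AT3G53730 (chromosome 3, 19912385 to 19913515, minus strand in TAIR10.1) led, with 119.6, 126 and 141 RPKM in OX3 at low phosphate, against 80.2, 83.6 and 82.6 RPKM in OX3 at normal phosphate. In WT, AT3G53730 had 125, 138 and 129 RPKM at low phosphate, against 75.8, 71.2 and 67.6 RPKM at normal phosphate. The log2 changes were 0.64 in OX3 (95% interval 0.50 to 0.78, limma adjusted p = 1.71e-06) and 0.86 in WT (95% interval 0.72 to 1.00, limma adjusted p = 7.22e-08). AT1G07660 (chromosome 1, 2368833 to 2369735, plus strand in TAIR10.1) had 46.9, 50.5 and 54.9 RPKM in OX3 at low phosphate, against 46.7, 52.5 and 44.9 RPKM in OX3 at normal phosphate. In WT, AT1G07660 had 43.1, 44.6 and 45.7 RPKM at low phosphate, against 42.8, 44.4 and 40.4 RPKM at normal phosphate. Here the groups overlapped, and the differences of 0.08 in OX3 (95% interval -0.07 to 0.23, limma adjusted p = 0.373) and 0.06 in WT (95% interval -0.08 to 0.21, limma adjusted p = 0.489) did not pass. The intervals of AT3G53730 and AT1G07660 do not meet in either genotype. AT1G07660 is uncertain, since 30.8% of its 50-base exon stretches occur elsewhere in the genome, shared with AT1G07820; so are AT1G07820 with 19.4%, AT3G45930 with 25.7% and AT3G46320 with 27.9%. AT3G53730 shares none. The uncertain genes AT1G07820, AT3G45930 and AT3G46320 rose by 0.42, 0.35 and 0.38 in OX3 and by 0.48, 0.46 and 0.51 in WT.

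AT5G59690, the most abundant H4 gene, had 181, 202 and 217 RPKM in OX3 at low phosphate, against 152, 172 and 164 RPKM in OX3 at normal phosphate. In WT, AT5G59690 had 172, 189 and 188 RPKM at low phosphate, against 148, 141 and 136 RPKM at normal phosphate. It rose by 0.29 in OX3 and 0.37 in WT (limma adjusted p = 0.00364 and 0.000651). HIS4 (AT2G28740) had 78.4, 76.1 and 89.7 RPKM in OX3 at low phosphate, against 67.8, 68.0 and 71.3 RPKM in OX3 at normal phosphate. In WT, HIS4 had 75.5, 91.2 and 85.2 RPKM at low phosphate, against 61.2, 59.9 and 56.8 RPKM at normal phosphate. Its rise was 0.23 in OX3 (limma adjusted p = 0.0176) and 0.49 in WT (limma adjusted p = 6.61e-05). AT5G59970 rose by 0.31 in OX3, where it had 83.2, 91.1 and 108 RPKM at low phosphate, against 70.2, 82.2 and 73.3 RPKM at normal phosphate (limma adjusted p = 0.0153), and by 0.45 in WT. The OX3 calls of HIS4 and AT5G59970 were lost without OX3 low-phosphate library 4 (limma adjusted p = 0.085 and 0.0789) or OX3 normal-phosphate library 2 (limma adjusted p = 0.0542 and 0.066), and that of HIS4 also without OX3 normal-phosphate library 3 (limma adjusted p = 0.0536).

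**Figure D3:**
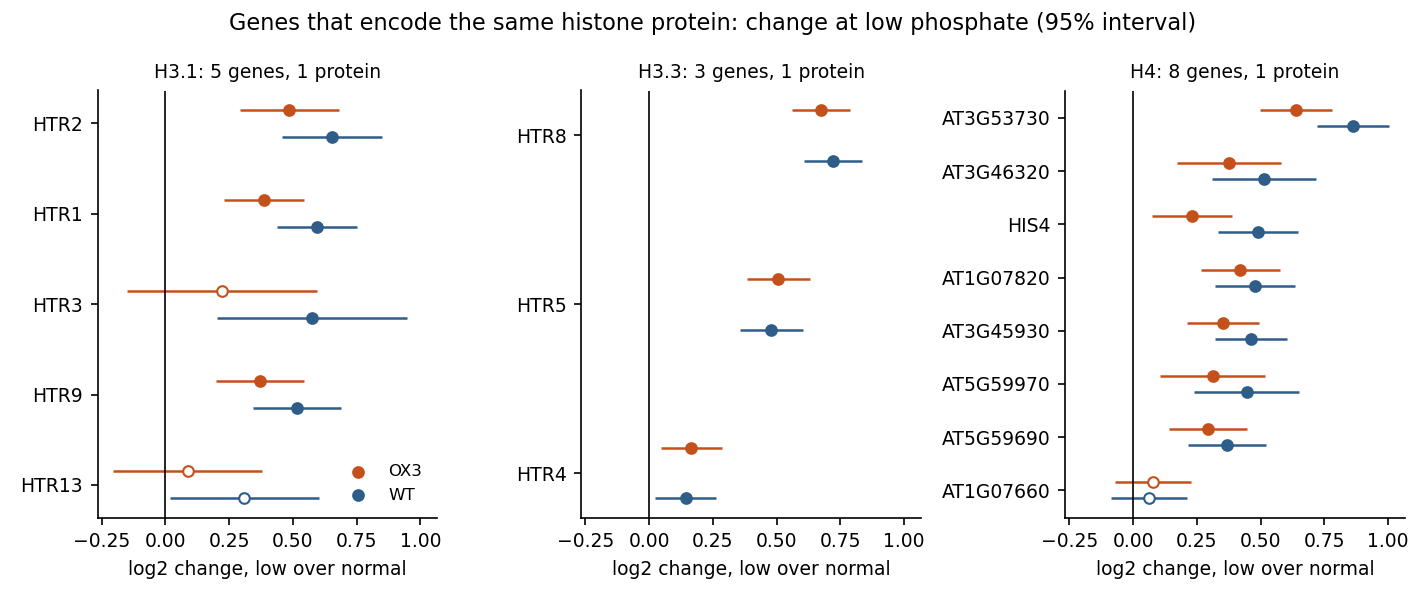
Log2 change at low over normal phosphate, with limma 95% intervals, of genes that encode identical H3.1, H3.3 or H4 proteins, in OX3 (orange, upper line of each gene) and WT (blue, lower line). HTR8 and HTR4 stand apart among the H3.3 genes, and AT3G53730 and AT1G07660 among the H4 genes; open points did not pass.

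Histone genes together took 0.544 ± 0.0342% of the recovered reads of a library in OX3 at low phosphate, against 0.402 ± 0.0117% in OX3 at normal phosphate (SD, n = 3 each). In WT they took 0.525 ± 0.0158% at low phosphate, against 0.366 ± 0.0109% at normal phosphate (SD, n = 3 each). The share was 0.511 to 0.584% in the 6 low-phosphate libraries and 0.354 to 0.414% in the 6 normal-phosphate libraries, with no overlap. Of the 36 tested members that overlap no other gene, 27 rose in OX3 and 29 in WT, and of the 41 that share little sequence, 28 and 32. HTA9, HTA13 and HTB9 also overlap genes on the opposite strand, so part of their reads may come from those genes.

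The remaining 5 members were below the minimum of 1 RPKM and were not tested with the others. HTR6, just above it, averaged 1.21 RPKM over the 12 libraries, and HTB8, just below, 0.763 RPKM. HTB8 (AT1G08170) is a divergent H2B of 243 residues, known from sperm and dry seeds. It has 73 residues identical to HTB11, a protein of 145 residues, which is 30.0% of the longer length. HTB8 had 17, 23 and 28 reads in OX3 at low phosphate, against 0 reads in each OX3 library at normal phosphate. In WT, HTB8 had 36, 31 and 28 reads at low phosphate, against 0 reads in each library at normal phosphate. Set against a floor of 3 reads in each normal-phosphate library, its mean RPKM was at least 7.82-fold higher in OX3 at low phosphate and at least 10.5-fold higher in WT at low phosphate. In a fit with no minimum it rose in both genotypes (limma adjusted p = 8.11e-07 in OX3 and 1.63e-07 in WT). The H3-like HTR15 had at most 5 reads in a library, and HTA4, HTR10 and AT4G04835 at most 2. HTR10 is known as the H3 of sperm cells, and the floor covers counting error only. AT5G12920, tested but in no class, had differences of -0.02 in OX3 and 0.06 in WT, neither of which passed.

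The second question was whether OX3 differed from WT at the same phosphate supply. At normal phosphate the histone genes leaned towards higher values in OX3, but few passed. Of the 45 tested, 2 were higher and 1 lower in OX3, where 1.37% of all 18910 genes were called higher and 1.73% lower (limma). The median log2 difference was 0.16 over the 45, beside 0.02 over all genes, and 41 of the 45 were above 0. At an unadjusted p below 0.05, 20 of the 45 were higher and 1 lower, as were 2445 and 2114 of all 18910 genes. HTA7 (AT5G27670, H2A.W) had 65.1, 67.0 and 67.7 RPKM in OX3, against 58.9, 54.1 and 48.6 RPKM in WT, with no overlap and a log2 difference of 0.31 (SE 0.071, limma adjusted p = 0.0384). HTA9 (H2A.Z) had 195, 201 and 182 RPKM in OX3, against 164, 157 and 161 RPKM in WT, at 0.26 (SE 0.065, limma adjusted p = 0.0462). HTA9 overlaps a gene on the opposite strand. HTB3 (AT2G28720), the only H2B gene below 0 in this comparison, had 40.0, 39.5 and 38.2 RPKM in OX3, against 46.0, 48.2 and 50.3 RPKM in WT, at -0.29 (SE 0.067, limma adjusted p = 0.0391). None of the 3 calls held in all alternatives. With a correction for GC content and gene length only HTB3 was called and the median of the 45 was 0.058. Leaving out any 1 of the OX3 normal-phosphate libraries 2, 3 and 4 or the WT normal-phosphate libraries 3 and 4 left 0 called by limma, and leaving out OX3 low-phosphate library 2 left 1. With no minimum 0 were called, and with the compared groups alone 6 were higher and 1 lower. Over the 19 alternatives limma's adjusted p ran from 0.0164 to 0.167 for HTA7, from 0.0278 to 0.178 for HTA9 and from 0.0235 to 0.166 for HTB3. All 4 tested shoot photosynthesis genes were also higher in OX3 at normal phosphate (log2 0.33 to 0.62), with a summed RPKM of 627 to 654 in OX3, against 404 to 465 in WT, and their part in the histone differences was not tested.

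By class, the median difference at normal phosphate was 0.27 for H2A.W, 0.25 for H3.1, 0.21 for H2A.Z, 0.19 for H4, 0.14 for H2B and 0.05 for H1. The summed H3.1 RPKM was 421 ± 7.86 in OX3 and 356 ± 24.2 in WT at normal phosphate (SD, n = 3 each), and the libraries did not overlap. For HTR1 the values were 165, 164 and 172 RPKM in OX3, against 153, 141 and 129.5 RPKM in WT, with a log2 difference of 0.25 that did not pass (limma adjusted p = 0.0734), though it did without WT normal-phosphate library 2 (limma adjusted p = 0.0392). The H4 sum was 669.8 ± 30.1 in OX3 and 588 ± 29.9 in WT (SD, n = 3 each), and all 8 H4 genes had differences between 0.16 and 0.22, none of which passed (smallest limma adjusted p = 0.0947). At an unadjusted p below 0.05, 6 of the 8 H4 genes were higher in OX3, and limma voom called 0. The H1 sum was 227 ± 6.60 in OX3 and 225 ± 7.14 in WT (SD, n = 3 each), and here the libraries overlapped.

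**Figure D4:**
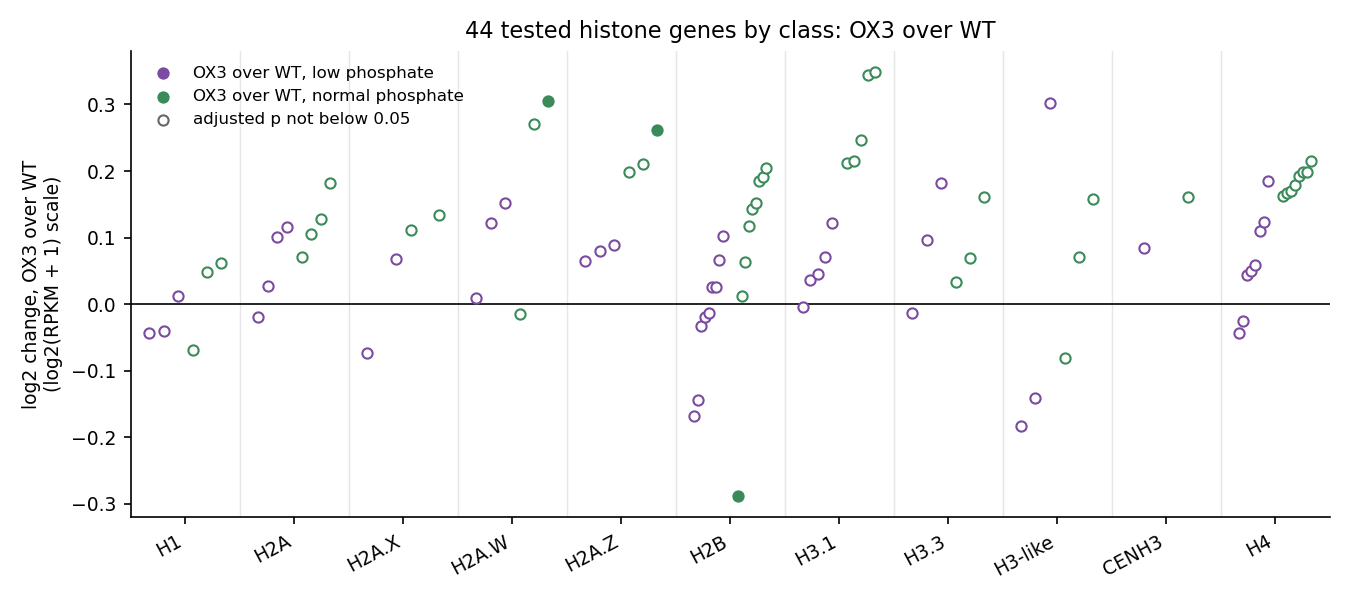
Log2 difference of 44 histone genes in OX3 over WT at low phosphate (purple, left in each class) and normal phosphate (green, right). At normal phosphate HTA7 and HTA9 were called above 0 and HTB3 below 0 (filled); no gene was called at low phosphate.

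At low phosphate 0 of the 45 were called higher and 0 lower in OX3 than in WT, where 0.0159% of all genes tested were called higher and 0.0264% lower (limma). At an unadjusted p below 0.05 there were 2 higher and 1 lower, and limma voom called 0. The median log2 difference was 0.04 over the 45. HTR4 came nearest, with 259.9, 264 and 289 RPKM in OX3, against 249, 239 and 228 RPKM in WT, a difference of 0.18 (95% interval 0.06 to 0.30, limma adjusted p = 0.22). AT1G07660 had 46.9, 50.5 and 54.9 RPKM in OX3, against 43.1, 44.6 and 45.7 RPKM in WT, at 0.19 (95% interval 0.04 to 0.33, limma adjusted p = 0.269). HTB3 had 52.5, 47.2 and 48.8 RPKM in OX3, against 60.8, 50.3 and 56.5 RPKM in WT, at -0.17 (95% interval -0.31 to -0.02, limma adjusted p = 0.284), and its groups overlapped. For H1.3 the difference was -0.04, with a 95% interval of -0.38 to 0.29.

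Whether the phosphate response itself differed between OX3 and WT was tested as an interaction. It called 0 of the 45 higher and 0 lower, and of all 18910 genes 0% higher and 0% lower (limma). At an unadjusted p below 0.05 there were 0 higher and 3 lower, and limma voom called 0. The median interaction was -0.09 over the 45, and 7 of them were above 0, that is, with the larger change in OX3. HIS4 had the smallest p, with an interaction of -0.26 (95% interval -0.48 to -0.04, limma adjusted p = 0.669). AT3G53730 had -0.22 (95% interval -0.42 to -0.02, limma adjusted p = 0.676) and HTA6 had -0.26 (95% interval -0.52 to -0.0032, limma adjusted p = 0.693). The 4 genes called in WT and not in OX3, namely HTA6, HTA9, HTA11 and HTR3, had interactions of -0.26, -0.18, -0.13 and -0.35, none of which passed (limma adjusted p = 0.693, 0.727, 0.832 and 0.773), so they are not shown to differ between genotypes. For H1.3 the interaction was -0.09 (95% interval -0.57 to 0.38).

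Other genes of the same pathways were set beside the histones at low over normal phosphate. Over all genes tested, 23.3% were called higher and 23.8% lower in OX3, and 24.3% higher and 21.6% lower in WT. Mitotic genes rose in part: 7 of 15 were higher and 1 lower in OX3, and 11 higher and 0 lower in WT, with medians of 0.21 and 0.38. CDKB2;2, a plant kinase of the G2 and M phases, rose by 0.67 in OX3 and 0.96 in WT (limma adjusted p = 5.94e-06 and 1.41e-07), and the mitotic cyclin gene CYCB1;2 by 0.36 and 0.43 (limma adjusted p = 0.00214 and 0.000508). DNA replication genes moved less, with 2 of 17 tested higher and 2 lower in OX3 and 5 higher and 0 lower in WT, and medians of -0.01 and 0.09. The licensing gene CDT1B rose by 0.33 and 0.58 (limma adjusted p = 0.0425 in OX3 and 0.00161 in WT). CDT1A, a second licensing gene, rose by 0.22 in OX3 and 0.32 in WT (limma adjusted p = 0.05 and 0.00636), and CDC45, a helicase cofactor, by 0.35 in WT (limma adjusted p = 0.0153). The ribonucleotide reductase gene RNR2A and the sliding clamp gene PCNA2 were the replication genes that fell in OX3, by 0.22 and 0.24 (limma adjusted p = 0.021 and 0.0274). In OX3 these calls held in part of the 19 alternatives, CDT1A in 9, CDT1B in 11, RNR2A in 15 and PCNA2 in 14.

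Of the 6 E2F, DP and RBR genes, 0 passed in OX3 and DPB alone fell in WT, by 0.24 (limma adjusted p = 0.037); in OX3 1 had an unadjusted p below 0.05 by limma, and limma voom called 0. At normal phosphate OX3 differed from WT in 2 of 15 mitotic genes, 2 of 17 replication genes and 3 of 22 genes of histone chaperones and exchange factors. Of all genes tested, 1.37% were called higher and 1.73% lower. CDKB2;2 and CDKB1;1 were higher in OX3 by 0.31 and 0.23, and PCNA2 and the ribonucleotide reductase gene TSO2 by 0.32 and 0.31. SPT6L, PIE1 and SPT16 of the chaperone and exchange factor list were lower by 0.67, 0.37 and 0.35 (limma adjusted p between 0.0159 and 0.0489 for these 7 genes). None of these 7 calls held in all 19 alternatives: PIE1 passed in 6, CDKB2;2 and PCNA2 in 7 each, SPT16 in 10, CDKB1;1 and TSO2 in 12 each and SPT6L in 15. Over all genes, 587 were called in this comparison, but 8 and 37 without OX3 normal-phosphate libraries 4 and 3, and 39 and 66 without WT normal-phosphate libraries 4 and 3. Histone chaperones, the proteins that carry histones to and from DNA, were listed together with exchange factors. This list had calls in both directions: 3 of 22 rose and 6 fell in OX3, and 1 rose and 3 fell in WT, beside the shares of all genes given above. Its medians were -0.05 in OX3 and 0.0049 in WT. NRP2 and NAP1;2, which bind H2A and H2B, fell by 0.34 and 0.23 in OX3 (limma adjusted p = 0.000638 and 0.00278) and by 0.22 and 0.22 in WT (limma adjusted p = 0.011 and 0.00415). SPT16, a subunit of the FACT complex, rose by 0.42 in OX3 and 0.25 in WT (limma adjusted p = 0.000738 and 0.0243). FAS1 and FAS2, subunits of the CAF-1 complex that loads H3.1 at replication, were singled out after their values were seen; they did not pass, with differences of -0.01 and -0.16 in OX3 and 0.23 and -0.16 in WT.

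Markers of root zones and of shoot tissue differed between the phosphate supplies as well. Of 5 genes tested in the root meristem list, 4 rose in OX3 and 5 in WT, and 0 fell in either. The list includes UPB1, an elongation zone gene. Its summed RPKM, UPB1 included, was 21.3, 25.5 and 23.5 in OX3 at low phosphate, against 15.2, 16.1 and 15.2 in OX3 at normal phosphate. In WT the sums were 22.2, 31.5 and 29.8 at low phosphate, against 15.9, 18.2 and 16.4 at normal phosphate. WOX5, the quiescent centre regulator, rose by 0.71 in OX3 and 0.60 in WT (limma adjusted p = 3.62e-05 and 0.000168). UPB1, a regulator of the transition to elongation, rose by 1.04 and 1.14 (limma adjusted p = 2.42e-06 and 9.26e-07). The 4 tested shoot photosynthesis genes fell in both genotypes, with a summed RPKM of 183, 206 and 217 in OX3 at low phosphate, against 646, 627 and 654 in OX3 at normal phosphate. In WT the sums were 187, 158 and 182 at low phosphate, against 465, 428 and 404 at normal phosphate. Of 6 root markers, 4 rose and 1, PYK10, fell in each genotype, PYK10 by 0.80 in OX3 and 0.96 in WT (limma adjusted p = 5.99e-05 and 9.50e-06). PYK10 made up most of the summed RPKM of these markers, so the sum mainly followed that gene. The sum was lower at low phosphate, at 4882 ± 341 in OX3, against 8331 ± 255 in OX3 at normal phosphate (SD, n = 3 each). In WT it was 4832 ± 409 at low phosphate, against 9258 ± 764 at normal phosphate (SD, n = 3 each). What part these markers have in the histone changes was not tested.

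With the upstream motifs in view, histone genes with and without the octamer had similar median changes. The 10 tested genes with the octamer had median changes of 0.38 in OX3 and 0.50 in WT, and the 35 without it, AT5G12920 among them, 0.35 and 0.48. Among octamer genes the changes ran from 0.08 to 0.87 in OX3 and from 0.06 to 0.88 in WT. The low end in both genotypes was AT1G07660 and the high end was H1.1 in OX3 and HTA13 in WT, 3 genes that carry the same 8 letters. The 10 tested genes with the hexamer had medians of 0.40 and 0.56, against 0.31 and 0.45 for the 35 without it, again with AT5G12920. AT3G53730, the strongest H4 gene, held none of the motifs searched in its 250 bases, as H1.3 did.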

How the data were processed

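Whole roots were profiled by RNA sequencing in 12 libraries, 3 for each of OX3 at low phosphate, OX3 at normal phosphate, WT at low phosphate and WT at normal phosphate. The authors deposited 1 table of RPKM values per gene and library; HTSeq 0.6.0 and the genome build TAIR10 are named in the submitters' processing notes, and the strand setting of the counting was not given in the sources used here. Whole reads were recovered from the steps between RPKM values, with 99.45% of genes and 49 of the 50 histone genes within 0.01 of whole numbers in all 12 libraries. The recovered totals were 17670349 to 20418542 reads. The histone genes and the other gene lists were chosen with earlier results of these data known.

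A gene was tested if it averaged 1 RPKM or more across the 12 libraries; 18910 genes were kept and 7031 fell below. One limma 3.58.1 fit (R 4.3.3) with a mean-variance trend was made on log2(RPKM + 1) over the 4 groups, without a replicate block. Tests were two-sided with Benjamini-Hochberg adjustment over all tested genes and a threshold of 0.05. The fit was also run on simulated libraries, drawn independently and with the same spread setting for every gene. That run does not measure how reliable the calls are in these data. Fold changes on this scale understate changes of low genes. Lists have counts and medians and no test of their own. Per-library values are given for the most abundant gene of each class, all H1, H3.3 and CENH3 genes, and in each comparison up to 6 called genes with the highest and up to 6 with the lowest change whose libraries did not overlap, or the 3 smallest p where none passed. AT1G07660 was added as an H4 gene that did not pass. Of each other list, up to 4 called genes with the smallest p were named.

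Gene positions, exons and windows came from RefSeq's TAIR10.1. Exons were cut into 50-base stretches, and a gene with at least 10% of them elsewhere in the genome is called uncertain. Proteins were translated from the annotated coding sequence with the lowest accession of each gene and aligned end to end with BLOSUM62 (Python 3.11.15, pandas 2.3.3, Biopython 1.88), and figures were drawn with matplotlib 3.10.9. Percent identity is the number of identical residues over the length of the longer protein. There were 19 alternatives: 7 other settings (size factors, no minimum, a pseudocount of 0.1, a replicate block, the compared groups alone, limma voom on recovered reads, and a GC content and length correction) and each of the 12 libraries left out in turn.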

Additional observations from a re-analysis of the deposited data

How the results depend on the processing

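At low over normal phosphate, the count of histone genes called in OX3 ran from 27 to 34 over the 19 alternatives and in WT from 32 to 36, with 0 lower in each; leaving out 1 library gave 27 to 33 in OX3 and 32 to 36 in WT. Of the calls, 27 of 31 in OX3 and 31 of 35 in WT held in all 19. No log2 change of a called gene turned its direction. For OX3 over WT at normal phosphate, where 3 were called, 0 were called with no minimum, 0 with a replicate block, 7 with the compared groups alone and 1 with a GC content and length correction, which also moved the median of the tested histone genes to 0.058; leaving out 1 library gave 0 to 4. The cause was not tested. At low phosphate and for the interaction 0 were called in every alternative run (limma, limma voom included); the interaction has no fit with the compared groups alone.

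With the replicate block, 34 histone genes were called at low over normal phosphate in OX3 and 36 in WT. Replicate number 1 occurs only in OX3 at low phosphate, so the block fits that library exactly. The OX3 low-phosphate values then rest on libraries 2 and 4. HTA8 passed with the block in OX3 (log2 0.31, limma adjusted p = 0.0498) and WT (limma adjusted p = 0.0414), and HTR13 in WT (limma adjusted p = 0.0436). Libraries with the same number correlated at -0.143 to 0.121 in their deviations from group means, so the numbers are not taken to pair libraries. Totals of 17670349 reads or more set the counting error of each value, which is larger for genes of few reads such as HTR6, HTR14 and the 5 genes under 1 RPKM.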
